A study of Mus musculus and Homo sapiens with 20 samples.

Results

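H2AK119ub intervals without an H3K27me3 peak in mouse embryonic stem (mES) cells numbered 3197 of 23670. An interval was a stretch of an autosome that lay inside H2AK119ub peaks of both wild-type (WT) mES replicates over at least 2 kb, and the 3197 intervals were those that no H3K27me3 peak of either WT mES replicate touched. They are called H3K27me3-negative intervals here, in the sense that no peak was listed. Of the others, 19278 intervals were touched by H3K27me3 peaks of both WT replicates (co-marked intervals) and 1195 by peaks of 1 replicate. The H3K27me3-negative intervals covered 10.6 Mb with a median width of 2800 bp (quartiles 2289 and 3747 bp, widest 19530 bp), against 95.8 Mb and a median of 3537 bp for the co-marked intervals. The intervals were chosen by the measured peaks of WT mES cells, so full H2AK119ub coverage and absent H3K27me3 in WT mES cells describe the choice and are not results.

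H2AK119ub and H3K27me3 were profiled by CUT&Tag, in which an antibody directs a transposase to a chromatin mark in permeabilised cells. The samples were WT and Tet2 knockout (KO, Tet2-/-) mES cells, and Lin- c-Kit+ haematopoietic stem and progenitor cells (HSPCs) taken from bone marrow of either sex at an age of 6 to 8 weeks, the WT animals being C57BL/6 and the KO animals Tet2-/-, with 2 replicates for each of the 8 combinations of cell, genotype and mark (16 mouse lists). Both mES lines were grown in serum with LIF, CHIR99021 and PD0325901 and cleared of feeder cells, and each genotype was represented by 1 line as far as the sources say. The HSPCs were enriched on magnetic columns, so they were a mixture of progenitors, were also kept in cytokine-supplemented suspension culture per the labels, and came from animals whose Tet2-/- genotype was not confined to blood. The study asked how loss of TET2, an enzyme that oxidises 5-methylcytosine, alters H2AK119ub.

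H2AK119ub is placed by Polycomb repressive complex 1 (PRC1) and removed by the BAP1-containing PR-DUB complex, and H3K27me3 is placed by PRC2. Canonical PRC1 carries a CBX protein that reads H3K27me3, whereas variant PRC1 carries RYBP or YAF2 and can act without H3K27me3, and some PRC2 forms bind H2AK119ub in turn. The marks therefore meet at the CpG-rich promoters of silent developmental genes in mES cells, and H2AK119ub is also known to spread thinly over much of the rest of the genome.

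The genome sequence at the centre of 4 H3K27me3-negative intervals and at 2 RefSeq promoters touched by them is shown because these loci stand for the patterns described afterwards. The build is mm10 (GRCm38.p6), and CpG dinucleotides are in capitals. The first pair are the middle 300 bases of the widest intervals inside gene bodies, in Arvcf (chr16:18396703-18397002, + strand, 4 CpGs) and Src (chr2:157463672-157463971, + strand, 6 CpGs). The third is the middle of an intergenic interval without H2AK119ub in any HSPC list (chr1:90504664-90504963, + strand, 6 CpGs), and the fourth lies in Ankrd55, in an interval largely uncovered in KO mES cells (chr13:112349213-112349512, + strand, 5 CpGs). The RefSeq promoters reach from 250 bases before to 50 after the start of Pou5f1 (chr17:35505782-35506081, + strand, 11 CpGs, all 300 bases inside the interval) and Lin28a (chr4:134018767-134019066, - strand, 10 CpGs, 110 bases inside the interval), and both are printed on the strand of the gene.
Arvcf: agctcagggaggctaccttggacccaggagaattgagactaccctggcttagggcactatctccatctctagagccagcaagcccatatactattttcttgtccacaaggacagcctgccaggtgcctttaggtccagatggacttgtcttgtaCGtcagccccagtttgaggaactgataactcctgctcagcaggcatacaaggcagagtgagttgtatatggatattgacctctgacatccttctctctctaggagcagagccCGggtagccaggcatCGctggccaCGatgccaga
Src: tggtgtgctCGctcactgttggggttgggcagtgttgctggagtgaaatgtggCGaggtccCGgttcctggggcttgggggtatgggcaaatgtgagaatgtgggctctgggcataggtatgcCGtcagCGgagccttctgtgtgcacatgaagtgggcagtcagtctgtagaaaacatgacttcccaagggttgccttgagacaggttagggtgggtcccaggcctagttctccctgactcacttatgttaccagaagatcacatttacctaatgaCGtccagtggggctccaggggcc
Intergenic: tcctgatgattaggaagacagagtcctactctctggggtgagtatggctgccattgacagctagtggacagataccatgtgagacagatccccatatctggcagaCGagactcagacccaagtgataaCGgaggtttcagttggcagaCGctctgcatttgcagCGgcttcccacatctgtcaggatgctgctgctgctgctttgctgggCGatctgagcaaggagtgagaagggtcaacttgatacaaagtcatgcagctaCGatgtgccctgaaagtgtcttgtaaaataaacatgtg
Ankrd55: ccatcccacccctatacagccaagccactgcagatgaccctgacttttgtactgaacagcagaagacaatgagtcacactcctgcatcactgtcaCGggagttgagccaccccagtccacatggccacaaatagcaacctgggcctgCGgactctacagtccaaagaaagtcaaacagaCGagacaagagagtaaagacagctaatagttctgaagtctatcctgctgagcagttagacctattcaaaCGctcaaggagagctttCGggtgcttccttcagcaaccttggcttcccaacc
Pou5f1: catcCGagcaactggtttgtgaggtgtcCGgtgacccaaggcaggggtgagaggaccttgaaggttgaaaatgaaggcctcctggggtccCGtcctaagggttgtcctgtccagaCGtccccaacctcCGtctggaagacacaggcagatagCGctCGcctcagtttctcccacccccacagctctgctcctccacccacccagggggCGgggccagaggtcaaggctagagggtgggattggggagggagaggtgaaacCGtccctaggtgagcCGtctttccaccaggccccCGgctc
Lin28a: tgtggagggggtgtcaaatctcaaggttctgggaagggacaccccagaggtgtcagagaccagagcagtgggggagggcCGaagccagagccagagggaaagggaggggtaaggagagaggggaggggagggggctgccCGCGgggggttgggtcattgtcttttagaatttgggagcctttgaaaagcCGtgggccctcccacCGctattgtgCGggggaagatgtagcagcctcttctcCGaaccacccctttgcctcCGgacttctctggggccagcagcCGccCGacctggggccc

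The values were shares of bases lying inside peaks, because the lists gave positions without peak heights, and the read depth behind them is unknown. Each list held between 85121 and 167378 peaks over 138 to 259 Mb of the autosomes. In HSPC WT replicate 2, 112734 H2AK119ub peaks over 138 Mb were listed, against 129892 to 136735 peaks over 166 to 174 Mb in the other 3 HSPC H2AK119ub lists, so results that include it are also given without it where they change. The labelled cells were checked at promoters covered by H3K27me3 over at least 1000 bases of the window within 1 kb of the gene start. Of 20 pluripotency genes, 3 had such a promoter in each WT mES list and 14 in each WT HSPC list, and of 22 haematopoietic regulators 16 had one in each WT mES list and 10 and 13 in the WT HSPC lists. The same count for H2AK119ub did not separate the cells. It gave 9 and 10 pluripotency genes in WT mES cells against 9 and 9 in WT HSPCs. For the haematopoietic regulators it gave 15 and 15 against 15 and 13. The check thus speaks for the H3K27me3 lists and leaves the H2AK119ub lists unchecked. Peak positions do not measure Tet2 transcripts, so the genotype labels were not checked. The study speaks of biological replicates, but the sources used here do not say which cultures or animals the 2 replicates of a group came from, so the p-values measure the spread between these samples, which may be technical. A lower share in a mixed population can come from fewer marked cells or from a weaker mark in each cell, which cannot be told apart.

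**Figure D1:**
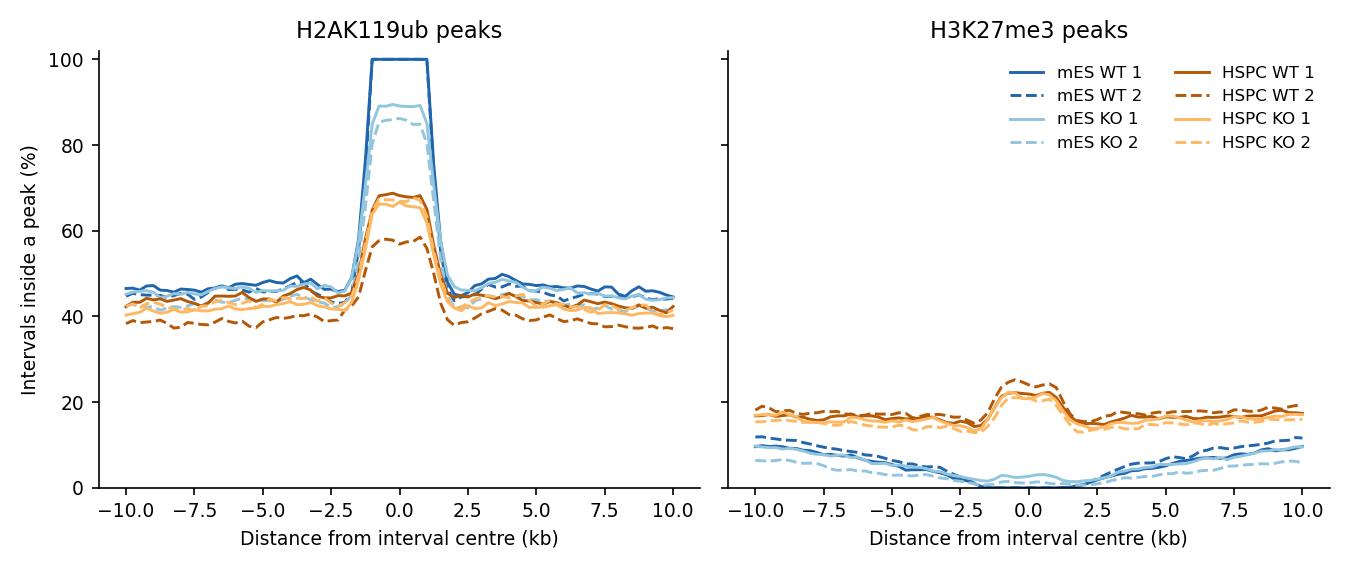
Share of the 3197 H3K27me3-negative intervals that lay inside a peak, by distance from the interval centre (kb), with 1 line per list and replicate 2 dashed. H2AK119ub stood at 100% over the centres in WT mES cells by choice, at 89.1% and 86.2% in KO mES cells and at 56.9% to 68.2% in HSPCs, and H3K27me3 in HSPCs stood at 20.8% to 24.0% over the centres and at 15.4% to 19.2% at 10 kb to either side.

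H3K27me3-negative intervals lay mostly inside genes. A gene-body interval overlapped a protein-coding gene away from its promoter, and a promoter interval reached within 1 kb of the start of one, with gene models from GENCODE release vM21. Of the 3197 intervals, 2105 (65.8%) were gene-body, 432 (13.5%) promoter, 532 (16.6%) intergenic, and 128 (4.00%) lay only in non-coding genes. Among co-marked intervals the shares were 41.0%, 24.4%, 26.7% and 7.93%. Exons held 21.3% of the bases of H3K27me3-negative intervals and coding exons 9.69%, against 14.4% and 6.20% of co-marked bases. These shares describe lists whose selection used the peaks, and no test was made of them.

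Within genes and away from promoters, the intervals leaned towards the 3' end. For the 1937 gene-body intervals that overlapped a single protein-coding gene, spread over 1163 genes, the median position was 66.4% of the way from start to end. Of 5 equal parts of the gene, the last held 651 of them (33.6%) and the first 162 (8.36%). The 432 promoter intervals were not counted here, so the share of the first part was lowered by definition. Positions were interval midpoints, and a midpoint past the 3' end was counted in the last part, which raised its share. The same holds for the co-marked intervals. The 7579 co-marked intervals of the same kind had a median position of 59.9%, with 27.9% in the last and 12.8% in the first part. The genes were shorter than those with co-marked intervals (median 58.9 kb against 86.8 kb, weighted by interval), and 606 of the 1937 intervals (31.3%) held no exon base.

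The sequences were rich in G and C. The median GC content was 53.5% (quartiles 51.5% and 55.4%), against 51.8% in co-marked intervals and 41.9% over the autosomes. CpG density was 1.65 per 100 bases in the median interval, 1.54 in the median co-marked interval and 0.851 over the autosomes, and the ratio of observed to expected CpG was 0.234, 0.233 and 0.194. Promoter intervals had 2.88 CpGs per 100 bases, gene-body intervals 1.66 and intergenic intervals 1.29, in the median. Single intervals ranged from 0.132 to 9.50 CpGs per 100 bases. Repeats masked in the reference took a median of 10.6% of an interval, against 33.5% of the autosomes.

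H3K27me3-negative intervals were not all far from H3K27me3. The nearest H3K27me3 peak of a WT mES list lay 6981 bp away in the median (39 bp for the nearest, 230658 bp for the farthest). It was within 5 kb of 1288 intervals (40.3%), within 10 kb of 1921 (60.1%) and within 50 kb of 3035 (94.9%). Another H3K27me3-negative interval was within 10 kb of 1391 (43.5%), and a co-marked interval within 10 kb of 1241 (38.8%). The surroundings also carried H2AK119ub, since at 10 kb on either side of the centres 44.2% to 46.5% of positions lay inside WT mES H2AK119ub peaks.

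At the lower limit of width, 328 intervals from 2 kb to under 2.1 kb wide were inside H2AK119ub peaks of KO mES cells over 84.5% and 79.2% of their bases, and the 366 stretches from 1.9 kb to under 2 kb that were left out had 82.2% and 78.2%. At the limit set by H3K27me3, 38 intervals lay within 500 bp of an H3K27me3 peak and had 77.5% and 75.6%, and 109 intervals left out for at most 500 bases of H3K27me3 had 83.8% and 77.2%.

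The widest interval, 19530 bp at chr10:81354591-81374120, covered the promoters of Mfsd12, a lysosomal and melanosomal transporter, and of 4930404N11Rik, and part of Fzr1, an activator of the anaphase-promoting complex. The next 9 in width were in Arvcf, a catenin (chr16:18388071-18405634, 17564 bp), Src, the tyrosine kinase (chr2:157456622-157471022, 14401 bp), Frs3, an adaptor of growth factor receptors (14246 bp), Llgl2, a cell polarity gene (13943 bp), Adgrl1, an adhesion receptor (13611 bp), Rara, the retinoic acid receptor alpha (13533 bp), Ahdc1, which encodes an AT-hook protein (12164 bp), Vwa7 and Vars, the latter encoding valyl-tRNA synthetase (11808 bp), and Acsf3, a mitochondrial acyl-CoA synthetase that lies within the long gene model Gm20388 (11714 bp).

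Over these 10 intervals H2AK119ub coverage ran from 83.7% to 100.0% in the KO mES lists and from 47.0% to 100.0% in the HSPC lists. In KO mES cells the interval over Mfsd12 was inside H2AK119ub peaks over 88.2% and 96.2% of its bases, that in Arvcf over 100.0% and 98.6%, and that in Src over 95.2% and 94.8%. In HSPCs the Arvcf interval had 97.0% and 92.1% in WT against 92.5% and 100.0% in KO. The Src interval had 82.8% and 67.5% in WT against 91.6% and 85.3% in KO, so its WT and KO values did not overlap. The lowest HSPC values of the 10 were over Adgrl1, with 62.4% and 47.0% in WT against 67.3% and 74.1% in KO. At Src and Adgrl1 both KO lists were higher than both WT lists, as for 23.3% of all 23670 intervals. H3K27me3 in HSPCs was low over Mfsd12 (11.6% to 21.2%) and Arvcf (11.3% to 19.5%) and higher over Src (68.0% and 70.1% in WT, 49.7% and 43.3% in KO). At Src H3K27me3 was lower in both KO lists, as for 13.4% of all 23670 intervals.

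The 10 widest promoter intervals were those of Mfsd12 and 4930404N11Rik, Vwa7, Gpt (alanine aminotransferase), Lcat (a plasma cholesterol-esterifying enzyme), Bhlha15 (a transcription factor of secretory cells), Sfn (14-3-3 sigma), Nr1d1 (a nuclear receptor of the circadian clock), Capn1 (a calpain protease), Men1 with Map4k2 (menin and a kinase) and Traf4 (a receptor adaptor). In the HSPC lists H2AK119ub covered 100.0% of the Vwa7, Men1 and Traf4 intervals in all 4 lists. Coverage was lower over Lcat, between 61.8% and 69.5% in the 4 lists, where none listed H3K27me3. Over Capn1 it was 82.3% and 78.4% in WT against 65.6% and 45.3% in KO. Lower values in both KO lists were found for 6.98% of all 23670 intervals.

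By genes, 1804 protein-coding genes held bases of H3K27me3-negative intervals between 1 kb before the start and the end. Of these, 1296 held 1 interval, 287 held 2, and 61 held 5 or more. Most bases were in Gm20388, a gene model of 4434.9 kb that spans many other genes (64 intervals), and in Fgfr2, whose model in this annotation spans 2960.9 kb (14 intervals). Next came Mcf2l, in which 12 intervals covered 29.9% of 147 kb, and Ahdc1, in which 9 intervals covered 63.4% of 66.9 kb. Ralgps1 (an exchange factor for Ral), Shb (an adaptor), Cmip, Sh3pxd2a (a podosome scaffold), Atp11a (a phospholipid flippase) and Anks1 (an adaptor) held 9 to 13 intervals each.

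A promoter was touched by an H3K27me3-negative interval in 491 of 20780 autosomal protein-coding genes (2.36%) and by a co-marked interval in 5009 (24.1%), and 1783 gene spans (8.58%) were touched by an H3K27me3-negative interval. Of 20 developmental regulators, such as Hoxa9, Pax6 and Gata4, none had an H3K27me3-negative interval at the promoter or in the span, and all 20 had a co-marked interval at the promoter. The 22 haematopoietic regulators and 19 autosomal germline genes known as targets of the PRC1.6 complex also had none, with co-marked intervals at 12 and 10 promoters. Since the rule excluded H3K27me3, these counts describe the choice.

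Among 20 pluripotency genes, Pou5f1, which encodes OCT4, and Lin28a, an RNA-binding regulator of let-7, had an H3K27me3-negative interval at the promoter, and 7 others had a co-marked one. The Pou5f1 interval (chr17:35503576-35506764) was inside H2AK119ub peaks over 94.1% and 90.9% in KO mES cells and 100.0% in all 4 HSPC lists. The Lin28a interval (chr4:134016788-134018876) had 92.5% and 92.7% in KO mES cells, 100.0% and 92.8% in WT HSPCs and 86.2% and 100.0% in KO HSPCs. Neither had H3K27me3 in KO mES cells, whereas H3K27me3 covered 100.0% of both in all 4 HSPC lists. Of the other genes on the list, Fgf4, a growth factor of the early embryo, and Sall4, a zinc finger regulator, had an interval within the gene (named after their values were seen), again with H3K27me3 over 100.0% in all 4 HSPC lists and none in KO mES cells. In Sall4 H2AK119ub in HSPCs was 56.4% and 17.1% in WT against 66.5% and 37.0% in KO, and in Fgf4 it was 85.4% to 100.0%.

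Of 25 genes for PRC1 and PRC2 subunits, 3 had an H3K27me3-negative interval at the promoter and 8 a co-marked one. They were Pcgf2, a subunit of canonical PRC1 (chr11:97697721-97701676), Rybp, a subunit of variant PRC1 (chr6:100288049-100290117), and Epop, a PRC2 cofactor (chr11:97626852-97628877). In KO mES cells H2AK119ub covered 89.2% and 100.0% of the interval at Pcgf2, 75.9% and 82.5% at Rybp and 100.0% in both lists at Epop. In HSPCs all 3 carried both marks, with H2AK119ub between 86.9% and 100.0% and H3K27me3 between 72.4% and 100.0%.

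The remaining lists gave few promoters. Of 12 genes of NF-kB and cytokine feedback, Socs3, an inhibitor of cytokine signalling (chr11:117962190-117971175), and Rela, an NF-kB subunit (chr19:5636912-5642081), had an H3K27me3-negative interval at the promoter. Both were covered by H2AK119ub in all 4 HSPC lists (98.9% to 100.0% for Socs3, 81.5% to 100.0% for Rela). H3K27me3 in HSPCs was 100.0% and 99.2% in WT against 79.6% and 76.6% in KO at Socs3, and 0.0% to 18.1% at Rela. Among 11 autosomal CpG readers and Trithorax genes, Cxxc1, a CpG-binding subunit of the SETD1 complexes, and Kdm6b, an H3K27 demethylase, had one, with HSPC H2AK119ub of 84.0% to 98.1% and 97.3% to 100.0%. No promoter interval was found for 12 widely expressed genes, 18 ribosomal protein genes, 9 RNA m5C genes, 9 TET and DNMT genes, 10 autosomal genes of the PR-DUB and MBD list, 7 cell cycle inhibitors or 13 autosomal imprinted genes.

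Several of these lists had an interval within a gene, named here after their values were seen. Mbd6, a methyl-binding domain protein and partner of PR-DUB, held an interval of 5258 bp with H2AK119ub over 96.6% and 83.6% in KO mES cells, 89.8% and 100.0% in WT HSPCs and 73.5% and 88.0% in KO HSPCs. Both KO HSPC values were below both WT values, as for 6.98% of all 23670 intervals. Dnmt3a, a de novo DNA methyltransferase, held 4 intervals, of which the widest (5855 bp) had 64.9% and 61.8% in WT HSPCs and 100.0% and 90.1% in KO HSPCs. Both KO values were above both WT values there, as for 23.3% of all 23670 intervals. In the other 3 the WT and KO values overlapped or met, with 45.9% and 46.1% in WT against 45.6% and 86.5% in KO, 21.1% and 17.6% against 22.1% and 14.8%, and 100.0% in both WT lists against 64.7% and 100.0%. Cdkn1a, the cell cycle inhibitor p21, held 1 interval with H3K27me3 over 85.7% to 100.0% in HSPCs. Over all lists, 31 intervals touched a listed gene, and H3K27me3 covered at least 50% of 9 of them in all 4 HSPC lists, namely those of Pou5f1, Lin28a, Fgf4, Sall4, Pcgf2, Rybp, Epop, Socs3 and Cdkn1a. That share of 29.0% lay above the 11.2% of all H3K27me3-negative intervals and below the 35.7% of all 23670 intervals.

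Short sequence motifs occurred in similar shares of both kinds of interval. Searched on both strands in the middle 300 bases, the E-box CACGTG was found in 5.82% of H3K27me3-negative and 5.49% of co-marked intervals, the E2F-type GGCGGGA in 3.00% and 3.12%, the ETS-type CCGGAAGT in 0.407% and 0.493%, the YY1-type AAGATGGC in 1.72% and 1.85% and the NRF1-type GCATGCGC in 0.782% and 0.612%. None of the 5 motifs lies within another. RefSeq promoters were given for 390 of the 491 genes with a touched promoter. In them GGCGGGA was found in 21.3%, against 11.5% of all 25748 autosomal promoters of the same length, CACGTG in 9.49% against 7.23%, CCGGAAGT in 6.92% against 4.08%, GCATGCGC in 3.33% against 2.80% and AAGATGGC in 2.31% against 2.87%. These promoters were not matched for CpG content. In the middle of promoter intervals GGCGGGA was found in 8.10%, against 6.09% of co-marked promoter intervals. There CACGTG (6.25% against 5.19%) and CCGGAAGT (1.16% against 0.660%) were also more frequent than in co-marked ones. AAGATGGC (1.39% against 1.55%) and GCATGCGC (0.463% against 0.574%) were less frequent. For CCGGAAGT, AAGATGGC and GCATGCGC these shares rest on few of the 432 promoter intervals, so their directions are uncertain. A match is a run of letters and does not show that a factor bound.

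H2AK119ub peaks were largely kept over these intervals in Tet2-KO mES cells. Peak positions do not show whether the level within a kept peak fell. With signal scaled to a spike-in, the study reported lower H2AK119ub after Tet2 loss in most marked regions of accessible chromatin. It also reported a global decrease in Tet2-KO mES cells, and H2AK119ub loss in Tet2-KO HSPCs. Those are measures of signal, not of peak positions, and the regions were not chosen as here. The KO replicates covered 88.2% and 84.7% of the bases (mean 86.5% ± 2.47, SD, n = 2), and the same replicates covered 93.6% and 91.9% of co-marked bases. In both KO replicates, 1446 intervals (45.2%) were covered over at least 90% of their bases, compared with 58.8% of co-marked intervals, and 11 intervals had no H2AK119ub peak in either. No test against WT was made, since WT stood at 100% by choice and any other list could only be lower.

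Intervals covered under 50% in both KO mES replicates numbered 100 (3.13%), against 1.66% of all 23670 intervals and 1.29% of co-marked intervals. The count rested on both replicates, since replicate 1 alone gave 200 and replicate 2 alone 276. Of the 100, 42 were gene-body, 36 intergenic, 13 in non-coding genes and 9 at promoters, and their median CpG density was 1.34 per 100 bases. The widest 5 lay in Ankrd55 (chr13:112345994-112352731), Ctif, a translation factor of the nuclear cap-binding complex, and BC067074 (chr13:113340635-113344930), and in 2 intergenic stretches. The Ankrd55 interval was covered over 20.7% and 9.66% in KO mES cells, 28.7% and 25.9% in WT HSPCs and 12.3% and 7.44% in KO HSPCs. BC067074 had 0.0% in both KO mES lists and both KO HSPC lists and 23.3% and 27.2% in WT HSPCs. At Ankrd55 and BC067074 both KO HSPC values were below both WT values, as for 6.98% of all 23670 intervals. The 100 intervals together were covered over 30.5% to 37.1% in the 4 HSPC lists, below the 59.2% to 69.3% of all H3K27me3-negative intervals.

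Chromosomes 6 and 13 stood apart. They held 44 of the 100 intervals, 25 on chromosome 13 and 19 on chromosome 6. On chromosome 13, KO coverage of the H3K27me3-negative intervals was 58.9% and 53.7%, and on chromosome 6 it was 74.2% and 66.5%, whereas the other autosomes lay between 78.1% and 92.8%. Co-marked intervals showed the same order, with 80.5% and 78.9% on chromosome 13. Of the 33 intervals past 90 Mb on chromosome 13, 24 were under 50% in both KO replicates. Over that segment all H2AK119ub peaks summed to 3.45 and 3.29 Mb in WT and 1.72 and 1.59 Mb in KO mES cells. H3K27me3 peaks summed to 2.34 and 3.06 Mb in WT and 1.87 and 1.25 Mb in KO, where the replicate 2 list was the shortest. As shares of all autosomal H3K27me3 peak bases these were 1.26% and 1.33% in WT and 0.879% and 0.843% in KO. In HSPCs the H2AK119ub sums there were 1.19 and 0.829 Mb in WT and 1.16 and 1.25 Mb in KO. Past 80 Mb on chromosome 6 a smaller share, 17 of 154 intervals, was under 50% in both KO replicates. All H2AK119ub peaks there summed to 13.3 and 12.8 Mb in WT and to 9.64 and 8.94 Mb in KO mES cells, and H3K27me3 peaks to 8.67 and 10.5 Mb and to 7.62 and 5.28 Mb. The cut points of 90 and 80 Mb followed no stated rule. Whether the DNA content of these segments differed between the mES lines was not tested. Without both chromosomes 56 intervals (1.896%) remained under 50%, against 0.838% of all and 0.575% of co-marked intervals on the same chromosomes.

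**Figure D2:**
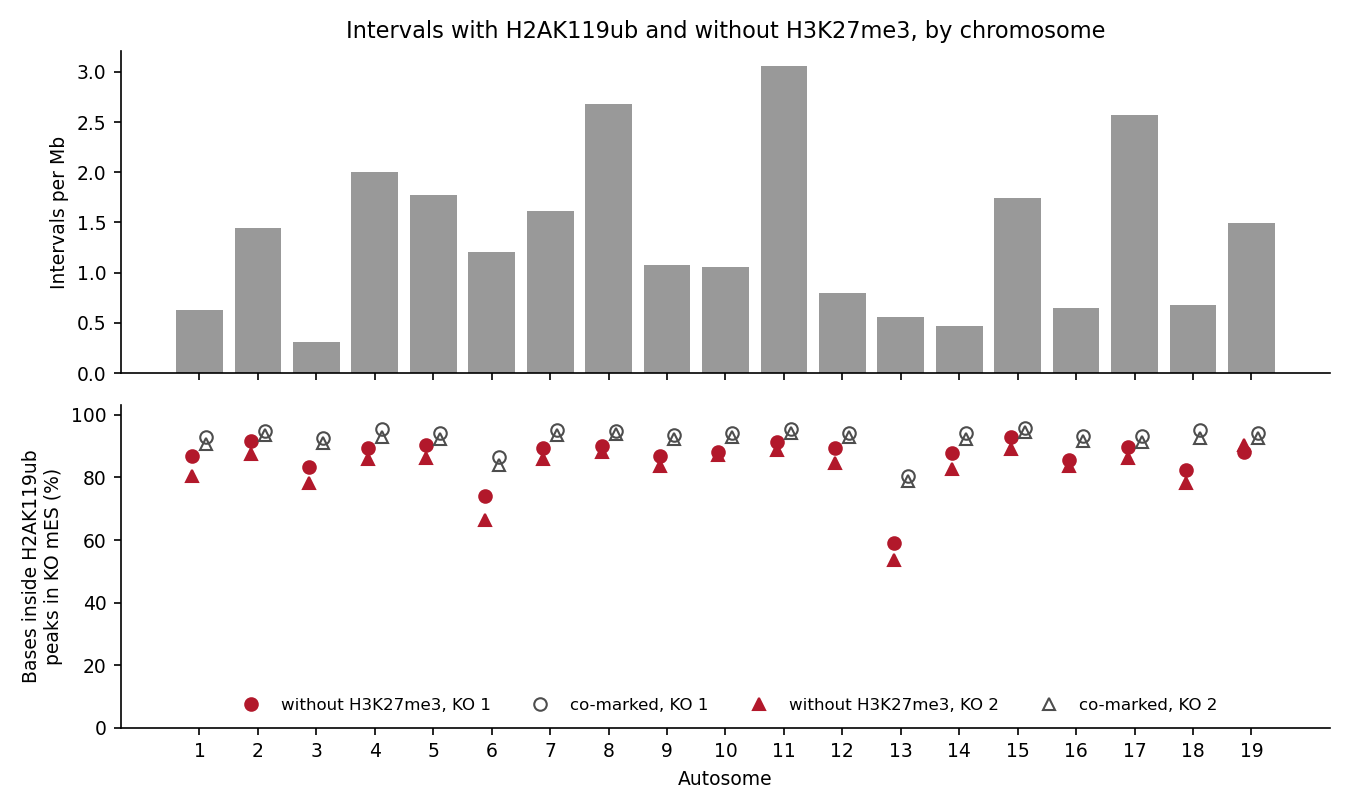
Upper panel, H3K27me3-negative intervals per Mb of each autosome, from 0.307 on chromosome 3 to 3.06 on chromosome 11. Lower panel, percentage of interval bases inside H2AK119ub peaks of each KO mES replicate (circles replicate 1, triangles replicate 2) for H3K27me3-negative (filled) and co-marked (open) intervals, lowest on chromosomes 13 and 6.

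Most of the intervals stayed without an H3K27me3 peak in KO mES cells. KO H3K27me3 peaks covered 2.68% and 1.23% of their bases (mean 1.95% ± 1.02, SD, n = 2), against 74.5% and 62.2% of co-marked bases. In both KO replicates 2853 intervals (89.2%) had no H3K27me3 at all. Only 8 intervals (0.250%) were covered by H3K27me3 over at least 50% in both, against 48.4% of all intervals, the rule having chosen intervals without the mark in WT. The count rested on both replicates, since KO replicate 1 alone gave 49 and replicate 2 alone 9. The list of KO replicate 2 was the shortest for H3K27me3 in mES cells, over 148 Mb against 187 to 230 Mb. The widest 5 of the 8 were within Tmem104, Rasa3 (a GTPase-activating protein for Ras), Usp35 (a deubiquitinase), Mcf2l and Ttyh3, and all 5 kept H2AK119ub over 100.0% in both KO replicates. In Mcf2l H3K27me3 covered 100.0% and 82.3% of the interval in KO mES cells and 0.0% to 10.9% in HSPCs.

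**Figure D3:**
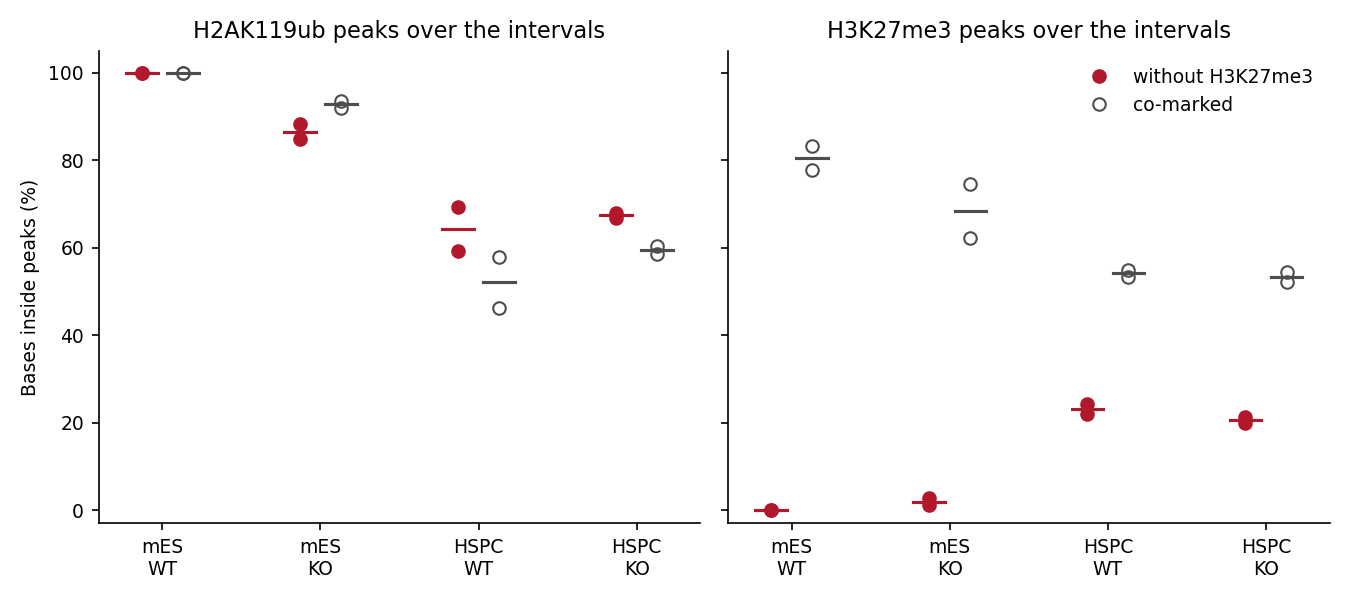
Percentage of bases of H3K27me3-negative (filled, red) and co-marked (open, grey) intervals inside H2AK119ub peaks (left) and H3K27me3 peaks (right), with 1 point per replicate and a bar at the mean of 2. In HSPCs the H3K27me3-negative intervals lay higher for H2AK119ub and lower for H3K27me3 than the co-marked ones in every list.

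In HSPCs, a cell type the choice did not use, H2AK119ub covered 69.3% and 59.2% of the bases in WT against 66.8% and 68.0% in KO. Co-marked intervals were covered less in each of these lists, at 57.8% and 46.3% in WT against 58.5% and 60.3% in KO. The difference of 10.1 percentage points (SD 2.53, range 7.71 to 12.95 over 4 lists) had the same sign in 4 of 4 lists, with p = 0.13 by an exact two-sided sign-flip permutation test, the smallest p that 4 lists allow, and 0.25 after Benjamini-Hochberg adjustment over 4 tests. With gene-body intervals alone the difference was 15.0 points and with promoter intervals alone 14.8 points, 2 splits chosen after the places were known.

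H3K27me3 in HSPCs went the other way. It covered 22.0% and 24.3% of the H3K27me3-negative intervals in WT against 21.2% and 19.8% in KO. For co-marked intervals it covered 53.4% and 54.8% in WT against 54.4% and 52.1% in KO. The difference was -31.9 points (SD 1.16, range -33.2 to -30.5), negative in 4 of 4 lists, again with p = 0.13 by the exact permutation test and 0.25 after adjustment. The intervals without H3K27me3 in mES cells were thus covered less by it in every HSPC list, but the design could not reach a p below 0.13.

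Between genotypes, HSPC H2AK119ub over the intervals averaged 64.3% ± 7.16 in WT and 67.4% ± 0.818 in KO (SD, n = 2 each). The KO values lay between the WT values, and the difference of 3.13 points had p = 1 by an exact two-sided permutation test, whose smallest p is 0.33. Without HSPC WT replicate 2 the difference turned to -1.94 points, and without HSPC WT replicate 1 it was 8.19. The study reported H2AK119ub loss in Tet2-KO HSPCs from signal, which peak positions do not measure. H3K27me3 averaged 23.1% ± 1.62 in WT and 20.5% ± 0.946 in KO, a difference of -2.63 points with p = 0.33 by the same exact test and 0.444 after adjustment. The WT and KO values for H3K27me3 did not overlap, but no p below 0.33 could be had.

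Interval by interval, H2AK119ub was lower in both KO than in both WT HSPC lists for 317 (9.92%), against 6.98% of all 23670 intervals, and higher in both KO lists for 482 (15.1%), against 23.3%. H3K27me3 was lower in both KO lists for 350 (10.9%, background 13.4%) and higher for 194 (6.07%, background 10.8%). Without HSPC WT replicate 2, whose H2AK119ub list was the shortest, H2AK119ub was lower in both KO lists for 869 intervals (27.2%, against 26.1% of all) and higher for 718 (22.5%, against 29.7%), so the side with more intervals changed. No single interval was tested, since 2 lists a group allow no p below 0.33.

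Where an interval lay went with its H2AK119ub in HSPCs. Promoter intervals were covered over 90.4% and 85.1% in WT against 89.6% and 90.5% in KO HSPCs. Gene-body intervals had 70.6% and 59.2% in WT against 67.3% and 68.2% in KO, and intergenic intervals 47.1% and 37.8% in WT against 46.1% and 48.7% in KO, so the 3 places did not overlap. In KO mES cells the same order was narrower, with 91.0% and 89.6%, 89.7% and 85.8%, and 80.5% and 76.8%. H3K27me3 in HSPCs was also highest at promoter intervals (33.7% to 40.6%) and lowest in gene bodies (15.3% to 19.8%), with intergenic intervals between (25.01% to 27.04%). Promoters of widely expressed genes also lay inside HSPC H2AK119ub peaks. At least 1000 bases of the window within 1 kb of the start were covered in 10 and 10 of 12 such genes in WT and in 10 and 9 in KO. In mES cells the counts were 3 and 5 in WT and 4 and 3 in KO. What the promoter coverage in HSPCs reflects was not tested.

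**Figure D4:**
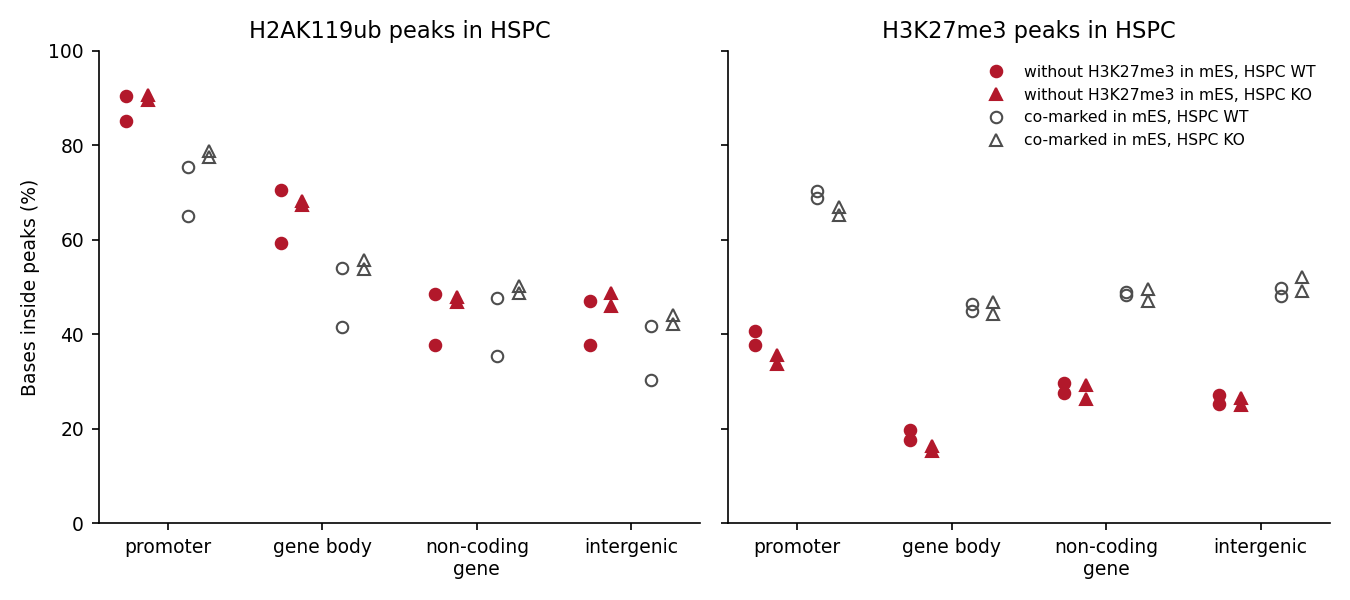
Percentage of interval bases inside H2AK119ub (left) and H3K27me3 (right) peaks of HSPCs by place, for H3K27me3-negative (filled, red) and co-marked (open, grey) intervals, with circles for WT and triangles for KO replicates. H2AK119ub covered 85.1% to 90.5% of H3K27me3-negative promoter intervals and 37.8% to 48.7% of intergenic ones.

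Coverage was also higher in wider intervals and in those with more CpGs. In HSPC WT replicate 1, intervals of 2 to 3 kb were covered by H2AK119ub over 62.4% of their bases, those of 3 to 5 kb over 70.7% and those of 5 kb and over 80.2%. The other HSPC lists had the same order. Co-marked intervals had it too, with 45.4%, 50.5% and 65.0% in HSPC WT replicate 1. By place, the means over the HSPC lists were 60.7%, 67.0% and 74.5% for gene-body intervals. Promoter intervals differed less, with 87.7%, 88.2% and 90.9%. Intergenic intervals did not keep the order, with 43.0%, 48.3% and 46.0%, the last from 18 intervals. In the quartile of gene-body intervals with the fewest CpGs (up to 1.32 per 100 bases), H2AK119ub covered 62.4% and 48.5% in WT against 58.8% and 60.1% in KO HSPCs, and in the quartile with the most (from 2.03) it covered 79.3% and 69.9% in WT against 75.8% and 76.7% in KO. H3K27me3 varied less over the same quartiles, between 12.9% and 23.7%. By distance from mES H3K27me3, the mark in HSPCs covered 21.4% to 26.1% of bases in intervals within 5 kb of an mES H3K27me3 peak, 20.5% to 25.1% over 5 to 10 kb away, 17.5% to 21.6% over 10 to 50 kb away and 20.8% to 25.3% in the 162 intervals over 50 kb away. Promoter intervals made up 10.6% of the nearest and 29.0% of the farthest class.

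**Figure D5:**
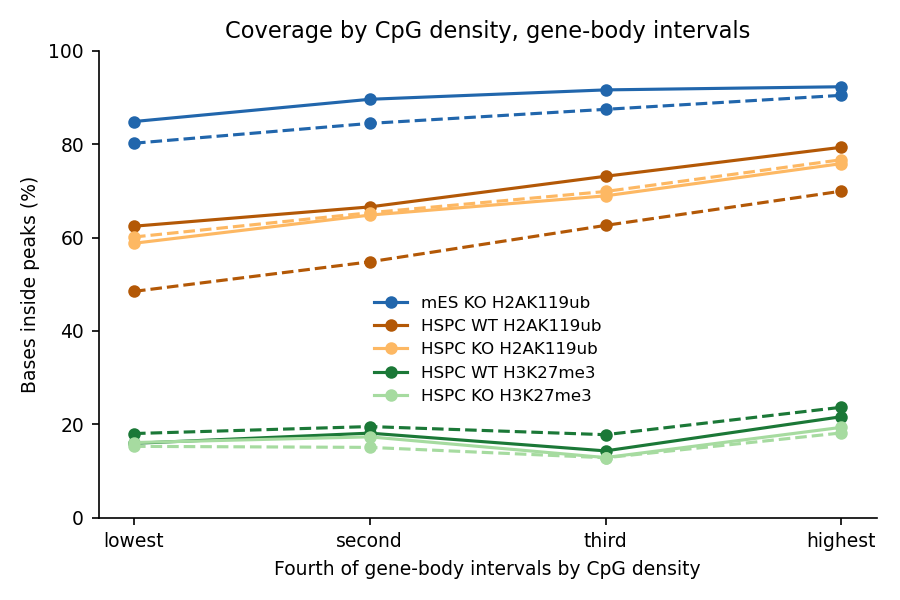
Percentage of bases of the 2105 gene-body intervals inside peaks, by quartile of CpG density, with 1 line per list (replicate 2 dashed). H2AK119ub was higher in the highest than in the lowest quartile in all 6 lists shown. H3K27me3 in HSPCs, between 12.9% and 23.7%, was also higher in the highest than in the lowest quartile in all 4 lists.

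At a threshold of 50% of bases in both WT HSPC lists of a mark, 1435 intervals (44.9%) carried H2AK119ub alone, 274 (8.57%) both marks, 179 (5.60%) H3K27me3 alone and 1309 (40.9%) neither. Of the 432 promoter intervals, 290 (67.1%) had H2AK119ub alone and 95 (22.0%) both, and of the 532 intergenic intervals 317 (59.6%) had neither. Co-marked intervals had H2AK119ub alone in 17.6%, both in 18.7%, H3K27me3 alone in 26.3% and neither in 37.5%. In KO HSPCs the 4 shares of the H3K27me3-negative intervals were 50.9%, 8.91%, 4.82% and 35.3%. With HSPC WT replicate 1 alone for H2AK119ub, the WT shares were 59.4%, 10.4%, 3.72% and 26.4%. These ask for 1 H2AK119ub list where the KO shares ask for 2, which by itself raises the H2AK119ub shares. The order of WT and KO therefore cannot be read from them. List by list, H2AK119ub covered at least 50% of the bases in 69.8% and 57.7% of the intervals in WT. In KO it did so in 66.5% and 68.5%.

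H2AK119ub covered at least 50% in all 4 HSPC lists for 1543 intervals (48.3%), against 35.2% of all intervals, and for 1789 when HSPC WT replicate 2 was left out. Of the 1543, 373 were promoter intervals, 1003 gene-body and 134 intergenic. The widest 5 at promoters were those of Mfsd12, Vwa7, Gpt, Lcat and Bhlha15. The Bhlha15 interval (chr5:144189813-144200521), for example, had 89.3% and 61.7% in WT against 94.9% and 74.0% in KO HSPCs, and the Gpt interval (chr15:76689532-76700450) had 98.97% and 84.0% in WT against 100.0% in both KO lists. At Gpt both KO values were above both WT values, as for 23.3% of all 23670 intervals.

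No H2AK119ub peak of any of the 4 HSPC lists touched 129 intervals (4.04%), against 6.1% of all intervals. None of the 129 was at a promoter, 64 (49.6%) were intergenic and 52 gene-body, and the median distance to a protein-coding gene start was 97738 bp, against 16557 bp for all H3K27me3-negative intervals. The widest 5 were 4 intergenic stretches and 1 in Cdh13, which encodes a cadherin, 490549 bp from a gene start. In KO mES cells the intergenic interval at chr1:90502545-90507082 kept H2AK119ub over 65.8% and 56.2% of its bases and that at chr2:171983469-171987740 over 70.1% and 63.1%. Only 9 of the 129 were also among the 100 intervals under 50% in both KO mES replicates.

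H3K27me3 covered at least 50% in all 4 HSPC lists for 358 intervals (11.2%), against 35.7% of all intervals. Of these, 166 were gene-body, 90 promoter and 80 intergenic, and H2AK119ub covered 60.6% to 75.4% of their bases in HSPCs. The widest 5 were in Rara, at Socs3, in an intergenic stretch (chr11:95537421-95546124), at Pmepa1, an inhibitor of TGF-beta signalling (chr2:173276643-173285016), and in Inava, an adaptor of innate immune signalling (chr1:136223796-136232122). In Rara H3K27me3 covered 63.5% and 92.9% in WT against 58.9% and 57.1% in KO HSPCs beside H2AK119ub over 95.8% to 100.0%. The intergenic interval had H3K27me3 over 100.0% in all 4 lists. At Pmepa1 it was 76.4% and 72.8% in WT against 66.8% and 51.2% in KO, and in Inava 77.9% and 79.0% in WT against 70.1% and 51.2% in KO, so that WT and KO did not overlap at Rara, Socs3, Pmepa1 or Inava, each of them lower in KO, as was the case for 13.4% of all intervals.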

How the data were processed

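CUT&Tag peak lists of 16 mouse libraries were used, and 4 lists from K562 cells were not used here. Per the study's methods and the labels, reads were trimmed with Trimmomatic 0.39, aligned to mm10 with Bowtie2 2.4.1, cleared of duplicates, and called as broad peaks with MACS2. HOMER 4.9 is also named in the submitters' processing notes, without its role. The deposited lists give chromosome, start and end without a score, so strength, depth and spike-in scaling could not be used. The narrowest listed peak was 501 bp, the width of 33.5% to 41.4% of peaks, so short features are widened.

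Peaks were merged within each list, and coverage was the percentage of interval bases inside peaks, computed with Python 3.11.15, numpy 2.4.6 and pandas 2.3.3. Interval arithmetic was tested on simulated data. Genes came from GENCODE vM21 and sequence from GRCm38.p6 (RefSeq promoters for Pou5f1 and Lin28a). Members of the set, the 14 gene lists (214 genes) and the tests were chosen with earlier results of these data known. Exact permutation tests were run over libraries, with Benjamini-Hochberg adjustment over 4 tests. Named were list genes with an interval at the promoter, the 10 widest intervals, the 10 widest at promoters, the 5 widest of each call and the 10 genes with most interval bases. Alternatives covered the width limit, the H3K27me3 margin, peak joining and filtering, chromosomes, equal peak numbers, the promoter window, the limit for calling an interval covered, and leaving out each replicate.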

Additional observations from a re-analysis of the deposited data

How the results depend on the processing

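The number of H3K27me3-negative intervals followed the rule: 10123 at a minimum width of 1 kb, 1370 at 3 kb, 340 at 5 kb, 1909 with no H3K27me3 within 5 kb, 5666 from peaks of 1 kb or wider, and 3550 to 5344 with 1 of the WT mES lists left out. Mean H2AK119ub coverage in KO mES cells was 81.1%, 89.0% and 91.5% at 1, 3 and 5 kb, 82.0% with peaks joined within 1 kb, 83.0% from peaks of 1 kb or wider, and 74.3% to 88.2% with 1 list left out. H3K27me3 coverage there was 4.09% when bases had to be H3K27me3-covered in both WT lists to exclude an interval, and 1.23% to 3.49% with 1 list left out. The HSPC difference between genotypes in H2AK119ub ranged from -1.94 to 8.19 points with 1 list left out, and was negative only without HSPC WT replicate 2. The other 3 HSPC differences kept their sign under every alternative run. With limits of 25% and 75% in place of 50%, 29 and 438 intervals were under the limit in both KO mES lists. Those over it in all 4 HSPC lists numbered 2109 and 877 for H2AK119ub, and for H3K27me3 they were 17.6% and 7.69% of the intervals. Promoters of 2 kb to each side raised the share at promoters from 13.5% to 15.8%. The causes were not tested.

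Replicate numbers are shared across groups, but nothing says that they mark a shared day or animal. With a replicate block, the HSPC differences between genotypes stayed at 3.13 points (p = 1) and -2.63 points (p = 0.5, the smallest that the exact permutation test then allows). The deviations of same-numbered libraries correlated at 0.00857 for H2AK119ub and -0.0108 for H3K27me3 over the 3197 intervals. With positions alone, a peak lost from a list cannot be told apart from one just under the caller's threshold.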
